A study of Mus musculus with 11 samples.

Results

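Transcripts of glycosylation enzymes and of glycosylated proteins were compared between regulatory T cells (Treg) and CD45RBhigh CD4+ T cells, the population that the labels call naive. The arrays were chosen by the sorted population named in their labels and by no measured value. This gave 3 Treg arrays (replicates 1, 2 and 4) and 4 CD45RBhigh arrays (replicates 1 to 4), which are 7 of the 11 arrays in the series. The other 4 arrays hold CD4+CD25-CD45RBlow cells, called activated or memory cells in the labels, and serve only as a level beside the comparison. All cells were CD4+ cells of female C57BL/6 mice, isolated from spleen by flow cytometry, and the labels name no transgene or treatment. Treg cells were CD25+ and CD45RBlow and the CD45RBhigh cells were CD25-, so the populations differ in both gates. Donor mice of the CD25- samples were 4 to 6 weeks old per the labels, which leave the age of Treg donors unstated, so an effect of age and an effect of population cannot be told apart. No label ties replicates to separate animals, and the p-values therefore reflect only how far these samples spread, which may be technical.

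Regulatory T cells are CD4+ cells that restrain immune responses, in part by consuming interleukin-2 through a receptor that contains CD25 and by releasing inhibitory cytokines. Naive T cells recirculate through lymphoid organs and depend on interleukin-7. Glycans on the T cell surface are built by enzymes of the endoplasmic reticulum and Golgi, and they shape binding to selectins, galectins and other lectins.

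Each value is the log2 RMA expression of 1 probe set on a custom glycan gene chip, and each difference is the Treg mean minus the CD45RBhigh mean on that scale. Levels of different probe sets were not compared, apart from the choice of the brightest probe set of a gene and sums over cell markers. In such sums probe sets with a strong signal weigh most. The number of arrays limits the precision. Array medians lay between 4.85 and 4.94 and 75th percentiles between 7.31 and 7.58. Arrays correlated across probe sets at 0.992 to 0.997 within both populations and at 0.956 to 0.968 between them (probe sets are not independent replicates). The first quartile of all values was 3.64, and a population whose mean was below it is called near background. A called rise from such a mean is given as "at least" that size, and a difference without a call is given as measured even where a mean lay near background. Names ending in s or x mark probe sets that may not be specific to 1 transcript. Among the genes described here, those of Ccr6, Ccr9, Cd74, Igfbp4, Ust, Acvrl1, Klra9, St8sia1, Cmah, Xylt2, Ugcg, Lgals1, Gcnt1, Il6ra and Il10rb are of this kind. So are those of Il17rb, Lgals3, Lgals4, Icam2, Notch2, St8sia6 and Klra8, and the list may not be complete.

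In limma, an adjusted p below 0.05 was reached by 235 of 1246 probe sets (18.9%), 128 of them higher and 107 lower in Treg cells. A difference of at least 2-fold was measured at 80 of these, 53 higher and 27 lower. At 311 probe sets (25.0%) all arrays of 1 group lay above those of the other, and 225 of the 235 were among these. The main limma fit left out the replicate numbers, which were taken to pair the samples. With the replicate number as a block, 151 were higher and 179 lower. Centring each array on its 75th percentile gave 98 higher and 132 lower. Without Treg replicate 2, 105 were higher and 59 lower, so the balance of the directions depended on these choices. With 1 probe set for each gene, 103 (11.3%) of 908 named genes were higher and 76 (8.37%) lower, and the median difference was -0.03. Counts of gene lists below are to be read beside these shares. A call is described below as held where it passed with each of the 11 arrays left out in turn and under 3 other scalings, 14 fits in all. Leaving out a CD45RBlow array changes no difference between Treg and CD45RBhigh cells, only its variance and adjusted p. Of the 179 calls in named genes 98 held, 65 higher and 33 lower. The 14 fits ignore the replicate numbers, and some calls that did not hold passed with the replicate block. Examples in limma are Cd44 (adjusted p = 1.63e-05), Icam2 (7.96e-05), Flt3l (0.000153), Notch2 (0.000374), Chsy1 (0.000464) and Lgals4 (0.000963). The calls of Il22ra1, Bmp6 and Cxcl13 did not hold and did not pass with the block either.

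**Figure D1:**
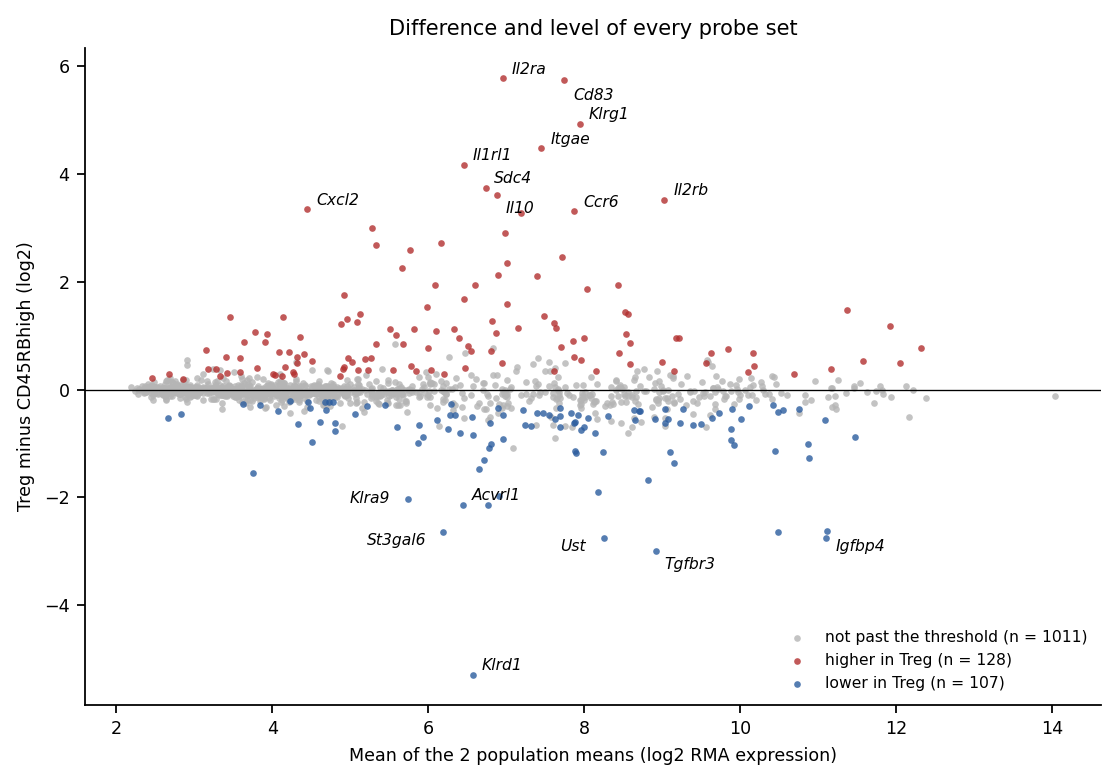
Each point is 1 of 1246 probe sets, with the average expression (log2 RMA) on the horizontal axis and Treg minus CD45RBhigh (log2) on the vertical axis. Probe sets past an adjusted p of 0.05 are coloured by direction, 128 higher and 107 lower in Treg. Il2ra and Cd83 lie at the top with differences of 5.77 and 5.73, and Klrd1 lies alone at the bottom at -5.29.

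The marker of the sort was examined first. Il2ra, which encodes CD25, the chain on which the cells were gated, read 10.02, 9.69 and 9.81 in Treg replicates 1, 2 and 4 and 4.10, 3.89, 3.85 and 4.45 in CD45RBhigh replicates 1 to 4. The groups lay far apart, with a difference of 5.77 (SE 0.20, 54.6-fold), which bears on the labels since CD25 defined the sort. Genes for CD4, CD3, CD45, CD8 alpha and Foxp3 were not analysed here. Of 14 measured genes of a regulatory T cell signature 13 were higher and 0 lower, against 11.3% and 8.37% of all named genes, and all 13 calls held. Their median difference was 3.56, and the list was drawn up with results of these arrays known, so it is not independent evidence.

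Cd83, which encodes a surface glycoprotein of activated lymphocytes and dendritic cells, read 10.74, 10.72 and 10.37 in the Treg arrays and 4.99, 4.94, 4.79 and 4.78 in the CD45RBhigh arrays. Arrays of 1 population lay close together, and the difference was 5.73 (SE 0.27, adjusted p = 7.93e-08 in limma). Areg, the gene of the growth factor amphiregulin, read 7.21, 6.98 and 6.13 against 3.76, 3.87, 3.95 and 3.54. Treg replicate 4 was the lowest Treg array but lay above every CD45RBhigh array (difference 2.99, SE 0.36). The signature gene that did not pass was Tgfb1, which encodes transforming growth factor beta 1. It read 9.46, 9.76 and 10.39 against 8.61, 9.05, 9.95 and 10.10, with overlap and a difference of 0.44 (adjusted p = 0.52). Replicates 1 and 2 were low in both populations, and with the replicate block Tgfb1 passed (adjusted p = 0.00619). Prdm1, the gene of the transcription factor Blimp-1, was named after its values were seen. It read 7.90, 7.82 and 7.66 against 6.25, 6.09, 6.33 and 6.20, without overlap (difference 1.58, SE 0.10, adjusted p = 6.74e-07 in limma).

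Genes associated with naive T cells did not all move the same way. Of 7 measured 4 fell and 2 rose, and all 6 calls held. Il7r, the receptor chain for interleukin-7, read 10.38, 10.12 and 10.25 in Treg arrays against 11.53, 11.50, 11.63 and 11.46 in CD45RBhigh arrays (difference -1.28, SE 0.08). Ccr7, which guides cells into lymph nodes, read 10.47, 10.40 and 10.24 against 11.53, 11.45, 11.27 and 11.26 and fell by 1.01 (SE 0.10). Every Treg array lay below every CD45RBhigh array in both genes. The other genes that fell were Igfbp4 and Il6ra, described with their families. Those that rose were Ccr9, a receptor for homing to the gut (2.10, SE 0.32), and Igf1r, the receptor for insulin-like growth factor 1 (1.85, SE 0.26).

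Among 24 genes linked to T cell activation or memory, 8 rose and 0 fell, with a median difference of 0.32, and the calls of Il2rb, Ccr2, Il12rb1, Cxcr3, Ccl1 and Icam1 held. Cd44, an adhesion receptor for hyaluronan that marks activated cells, read 9.69, 9.33 and 8.72 against 8.29, 7.91, 7.41 and 7.61. The groups did not overlap but both were spread widely, and the call (difference 1.44, adjusted p = 0.012) ended without Treg replicate 1 (adjusted p = 0.06). The effector cytokine genes Ifng (0.67), Il4 (-0.11), Il5 (0.06) and Il17a (0.55) were not called.

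Markers of other cells that a spleen sort could hold were read on the same arrays. Of 6 B cell markers 4 were higher in Treg cells, and their summed level was 10.2 to 10.3 on the log2 scale in Treg arrays against 8.78 to 8.95 in CD45RBhigh arrays. Cd74, the invariant chain of class II antigen presentation, rose by 2.46 (SE 0.13) and Cxcr5, a receptor for entry into B cell follicles, by 2.34 (SE 0.22). Most of the rise of the sum came from Cd74 and Cxcr5. Cd72 (0.54) and Cd22 (0.29), both inhibitory receptors of B cells, passed as well, but not without Treg replicate 1 (adjusted p = 0.082 and 0.073), which left 2 of the 4. Siglecg (0.04) and Fcer2a (-0.09) did not pass, and Cd79a and Ms4a1 were not analysed here. Of 7 markers of natural killer and CD8+ cells 0 were higher and 3 lower, with a summed level of 6.27 to 6.45 against 9.17 to 9.60. Klrd1 made up most of that sum in CD45RBhigh cells, and its call was the only 1 of the 3 to pass without Treg replicate 1, 2 or 4 or CD45RBhigh replicate 1, whereas 5 fell with the replicate block. Of 19 myeloid and dendritic cell markers 11 lay near background in both populations, and their summed level was 8.05 to 8.13 against 8.06 to 8.17. Their 1 call, a fall of Cd209a (-0.24), ended when any 1 of 10 arrays was left out (adjusted p up to 0.19). Among these were the CD45RBlow arrays, without which the difference stayed the same. The part of other cells in the differences was not tested. In sorted bulk cells, fewer cells of a type and less RNA per cell cannot be told apart.

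**Figure D2:**
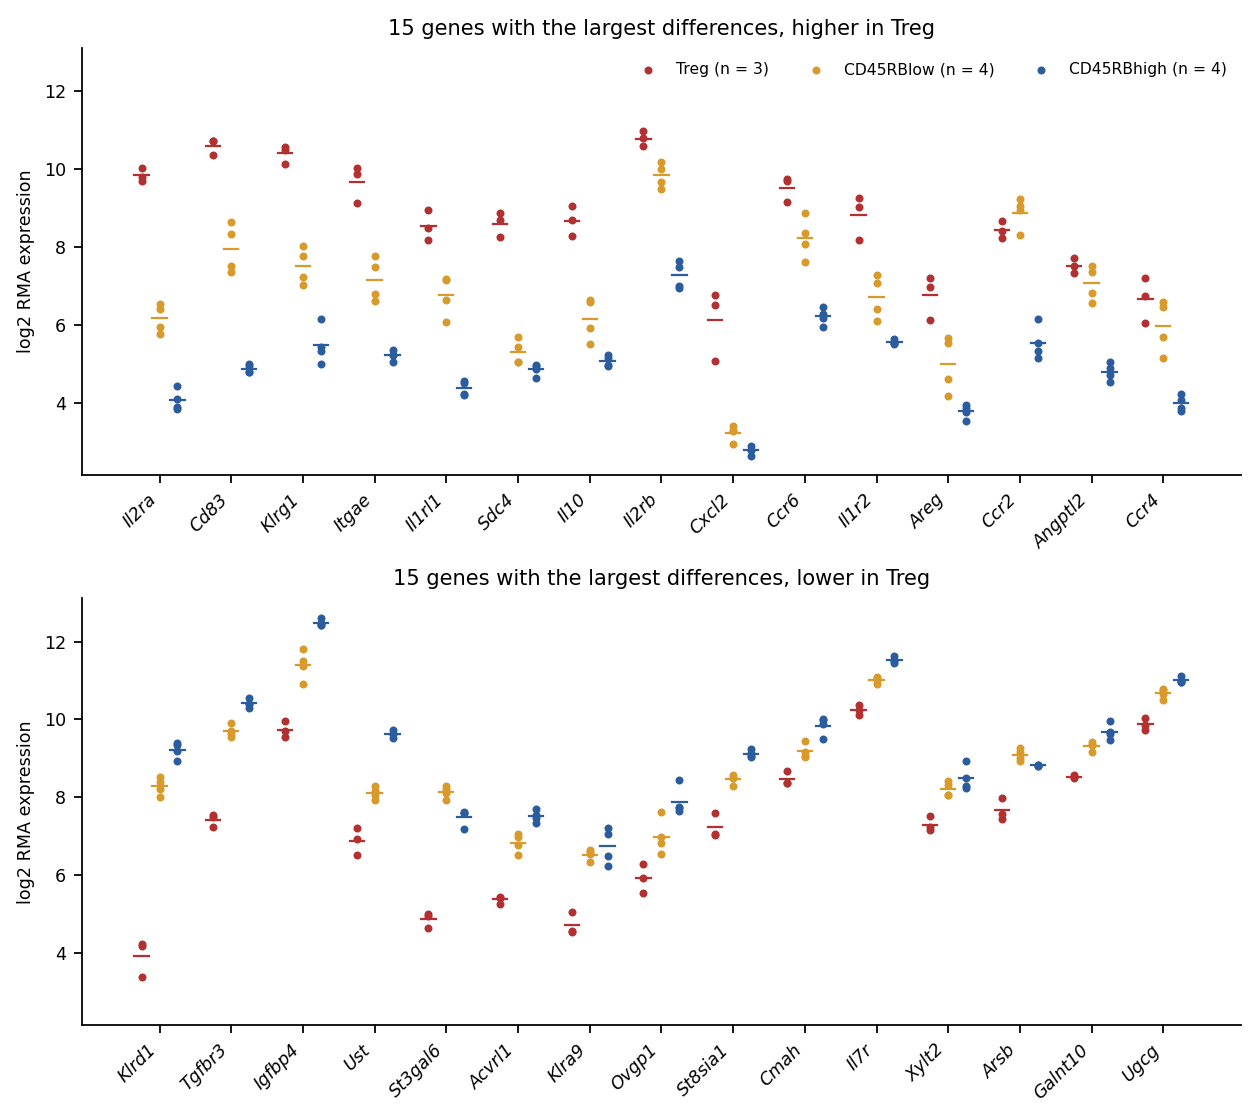
Each point is 1 array, with log2 RMA expression as the value axis, for the 15 genes per direction that differed most, each past the threshold and without overlap of the groups. Colours mark Treg (n = 3), CD45RBlow (n = 4) and CD45RBhigh (n = 4). Treg arrays lie above all CD45RBhigh arrays in the genes that rose and below them in the genes that fell. The CD45RBlow arrays mostly lie between, except at Ccr2, where their mean of 8.89 is above the Treg mean, and at St3gal6 and Arsb, where their means of 8.13 and 9.09 are above the CD45RBhigh means.

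Among cytokine receptors, 2 chains of the interleukin-2 receptor rose and the interleukin-7 receptor fell, and the other genes of their family were not called. Of 16 genes for the cytokines and receptors that use the common gamma chain 2 rose and 1 fell, and all 3 calls held, with 2 falls after quantile normalization or centring of array medians. The median difference was 0.04. Il2rb, the beta chain that passes on the interleukin-2 and interleukin-15 signal, read 10.97, 10.80 and 10.59 in Treg arrays and 7.66, 6.95, 7.0 and 7.49 in CD45RBhigh arrays. The groups lay far apart (difference 3.51, SE 0.21, adjusted p = 3.19e-07 in limma). The common gamma chain Il2rg read 12.29, 12.26 and 12.38 against 12.48, 12.52, 12.43 and 12.46. The Treg arrays were slightly the lower without overlap, but the difference of -0.16 (SE 0.06) did not pass (adjusted p = 0.079). Il2 itself (0.32) and Il15ra (0.19), the chain that presents interleukin-15, were not called.

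Promoter sequence is shown for Il2ra, the gene with the largest difference, and for both annotated starts of Il1rl1, whose probe sets differ in size as given further on. Each stretch is the 250 bases before a start in RefSeq for GRCm38.p6, 5′ to 3′ on the plus strand, at chr2:11642542-11642791 for Il2ra and at chr1:40429320-40429569 and chr1:40439379-40439628 for the upstream and the downstream start of Il1rl1. Capitals mark a match to GGGNNTTCC, a form of the kappa B motif, in Il2ra, and to TGTTTAC, a forkhead motif, at the downstream start of Il1rl1. Both matches lie on the minus strand, and both strands were searched.
Il2ra: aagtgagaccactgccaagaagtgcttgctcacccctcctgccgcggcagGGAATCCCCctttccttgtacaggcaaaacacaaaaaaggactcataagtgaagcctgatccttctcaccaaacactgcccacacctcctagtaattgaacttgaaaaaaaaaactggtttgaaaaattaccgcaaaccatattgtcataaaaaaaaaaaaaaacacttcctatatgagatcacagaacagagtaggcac
Il1rl1 upstream start: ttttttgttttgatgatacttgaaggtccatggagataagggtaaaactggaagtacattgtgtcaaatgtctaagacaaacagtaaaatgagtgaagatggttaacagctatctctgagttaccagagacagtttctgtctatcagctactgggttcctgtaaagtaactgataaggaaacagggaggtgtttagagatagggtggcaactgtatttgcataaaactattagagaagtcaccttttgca
Il1rl1 downstream start: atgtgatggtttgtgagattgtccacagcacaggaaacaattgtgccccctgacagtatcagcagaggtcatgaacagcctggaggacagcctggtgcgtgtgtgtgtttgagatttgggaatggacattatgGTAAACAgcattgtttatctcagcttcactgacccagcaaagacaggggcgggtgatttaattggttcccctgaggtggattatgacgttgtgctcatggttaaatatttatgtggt
RefSeq promoters were matched for 22 of the 30 leading genes, 10 higher and 12 lower in Treg cells. GGGNNTTCC occurred in 4.98% of all 32851 windows of this length, and among these genes in Il2ra, Ccr6, Sdc4 and Ust. TGTTTAC occurred in 3.17% of all windows and here in Il1rl1. TTCNNNGAA, a motif of STAT proteins, occurred in 7.02% of all windows and here in Ccr6, Il1r2 and Il7r. The motifs were chosen after other motifs had been looked at, and a match describes letters in a window, not a site.

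In the interleukin-1 family 3 of 18 genes rose and 1 fell, with a median of 0.04, and the rises held. Il1rl1, which encodes ST2, the receptor for interleukin-33, was read by 2 probe sets designed on separate RefSeq transcripts, and which receptor form each reads was not determined. The brighter one read 8.95, 8.49 and 8.17 in Treg arrays against 4.50, 4.23, 4.19 and 4.57 (difference 4.16, SE 0.26, 17.9-fold). The other read 4.80, 4.45 and 4.59 against 3.86, 4.07, 4.10 and 4.04 (difference 0.60, SE 0.09). The groups did not overlap at either probe set, and the differences were of unlike size. Il1r2, a decoy receptor that binds interleukin-1 without signalling, read 9.04, 9.25 and 8.18 against 5.65, 5.54, 5.55 and 5.50 (difference 3.26, SE 0.30). Il18, a cytokine of the family, rose by at least 1.35 (SE 0.19). The signalling chains Il1r1 (0.36), Il1rap (0.13) and Il18r1 (-0.10) were not called. Il1rl2, a receptor chain for interleukin-36, differed by -0.35 with overlap between the groups, and its call ended when any 1 of 9 arrays was left out (adjusted p up to 0.17).

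In the interleukin-10 family the cytokine and both chains of its receptor rose. These were 3 of 13 genes, their calls held, and the family median was 0.07. Il10, an inhibitory cytokine, read 9.07, 8.70 and 8.28 in Treg arrays against 5.16, 5.23, 4.97 and 4.95. No array came near the other group (difference 3.61, SE 0.26, adjusted p = 1.63e-06 in limma). Il10ra, the ligand-binding chain, read 8.09, 8.12 and 8.42 against 6.90, 6.61, 7.12 and 7.63 (difference 1.14, SE 0.19), and Il10rb, the shared chain, rose by 0.86 (SE 0.09). CD45RBhigh replicate 4 was the highest of its group for Il10ra. The 1 fall, of the interleukin-22 receptor chain Il22ra1 (-0.23), ended with the replicate block (adjusted p = 0.062) and when any 1 of 9 arrays was left out (adjusted p up to 0.15).

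In the interleukin-6 and interleukin-12 family 1 of 13 genes rose and 2 fell. Il12rb1, a chain of the receptors for interleukin-12 and interleukin-23, read 8.0, 7.93 and 7.94 in Treg arrays against 5.96, 5.70, 5.59 and 6.08 (difference 2.12, SE 0.12), while its partner Il12rb2 (-0.32) was not called. The 3 Treg values were almost equal. Il6ra, the receptor chain for interleukin-6, read 6.24, 5.98 and 5.80 against 6.84, 6.97, 6.80 and 6.65 and fell by 0.81 (SE 0.11), with -0.26 and -0.48 at its other probe sets. Il6st, the signalling chain gp130, differed by -0.30, and its call ended when any 1 of 9 arrays was left out (adjusted p up to 0.14). Among 33 other cytokine and receptor genes 6 rose and 2 fell, and 5 of the rises held. Csf1, a growth factor of macrophages, read 8.33, 8.40 and 7.96 against 6.96, 7.06, 6.86 and 7.08 (difference 1.24, SE 0.11). Il17rb, a receptor chain for interleukin-25, rose by 1.12 (SE 0.17), Il3ra, the receptor chain for interleukin-3, by 0.72 (SE 0.16) and Kit, the receptor for stem cell factor, by 0.70 (SE 0.12). Flt3l, the ligand of the receptor FLT3, fell by 0.61 in a call that ended without Treg replicate 1 or 2 (adjusted p = 0.06 and 0.074). With the replicate block 4 of these genes fell in place of 2.

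**Figure D3:**
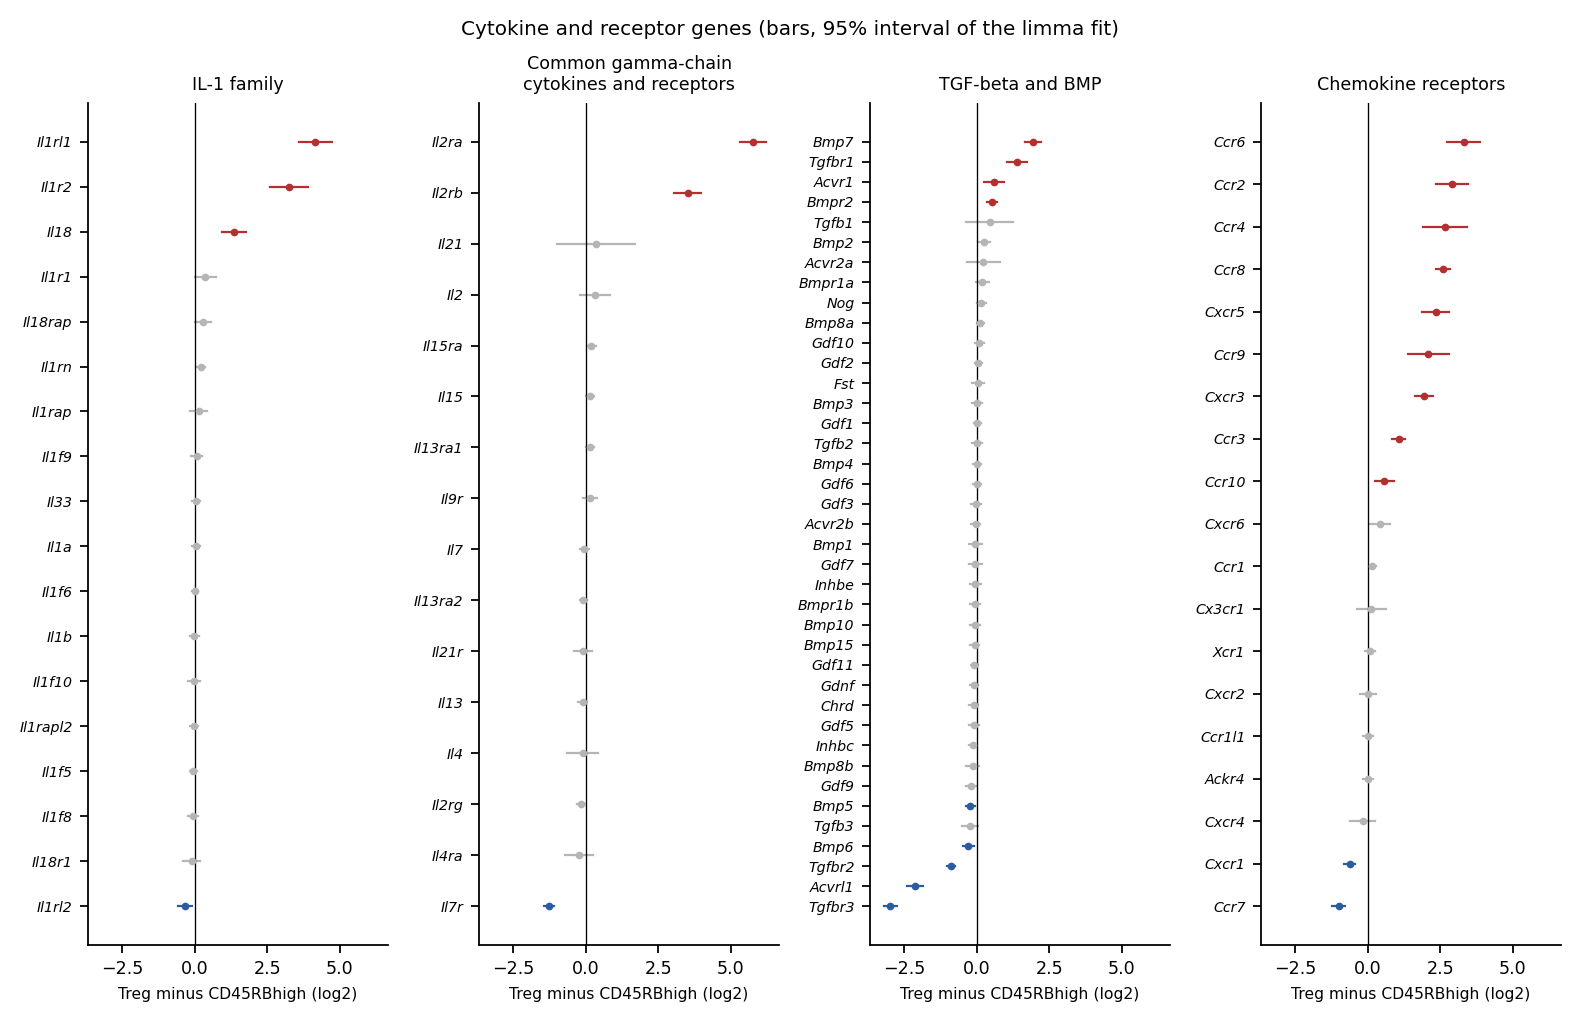
Each point is the difference of 1 gene, Treg minus CD45RBhigh (log2), and each bar its 95% interval in limma, for genes of 4 families. Genes past an adjusted p of 0.05 are coloured by direction and the others are grey. Il2ra, Il2rb, Il1rl1 and Il1r2 stand far above 0, the genes of the TGF-beta family are called on both sides of 0 with Tgfbr3 lowest, and 9 of the 19 chemokine receptors drawn are called above 0.

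The receptors of the transforming growth factor beta family moved in opposite directions. Of 39 genes of the family 4 rose and 5 fell, shares of 10.3% and 12.8% near those of all named genes, with a median of -0.04. Calls of 3 genes held in each direction. Tgfbr1, the type I receptor kinase, read 9.63, 9.09 and 9.07 in Treg arrays against 7.96, 7.66, 7.92 and 7.92 (difference 1.40, SE 0.15, adjusted p = 4.77e-05 in limma). Tgfbr2, the type II receptor that binds ligand first, read 11.11, 11.02 and 10.98 against 11.86, 11.95, 11.91 and 11.98. Here every Treg array was the lower (difference -0.89, SE 0.06), with -1.31 (SE 0.18) at a second probe set. Tgfbr3, the co-receptor betaglycan, which presents ligand and carries glycosaminoglycan chains, read 7.54, 7.24 and 7.50 against 10.40, 10.39, 10.31 and 10.56. It fell furthest of the family, by 2.99 (SE 0.10, 7.93-fold, adjusted p = 8.22e-09 in limma).

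Acvrl1, the type I receptor ALK1, read 5.27, 5.42 and 5.45 in Treg arrays against 7.35, 7.55, 7.46 and 7.70 (difference -2.14, SE 0.13). Bmp7, a bone morphogenetic protein, read 7.62, 7.63 and 7.47 against 5.40, 5.63, 5.55 and 5.94 (difference 1.94, SE 0.13). Neither gene showed overlap between the groups. Bmpr2, a type II receptor for such ligands, rose by 0.52 (SE 0.08). The calls of Acvr1 (at least 0.60), a type I receptor, and of the ligands Bmp5 (-0.22) and Bmp6 (-0.29) did not hold, and counts in the family moved with 1 array: 4 rose and 3 fell without Treg replicate 2 or CD45RBhigh replicate 1, 2 or 3 or CD45RBlow replicate 4 and 3 rose and 3 fell without Treg replicate 1. The highest adjusted p with an array left out was 0.10 for Acvr1, 0.18 for Bmp5 and 0.19 for Bmp6. With the 75th percentile centring 4 rose and 3 fell, and Bmp6 did not pass with the replicate block either (adjusted p = 0.069). Tgfb3 (-0.24) and Tgfb2 (0.00) were not called, though Tgfb3 passed with the block (adjusted p = 0.02).

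Chemokine receptors steer T cells into tissues. Of 20 genes 10 rose and 2 fell, shares of 50.0% and 10.0%, with a median of 0.49 against -0.03 over all named genes, and 8 rises and both falls held. Ccr8, a receptor found on regulatory and type 2 helper cells, read 6.84, 7.29 and 7.08 in Treg arrays against 4.35, 4.56, 4.37 and 4.62. The spread within each population was small beside the difference of 2.59 (SE 0.11, adjusted p = 4.45e-08 in limma). Ccr6, the receptor for CCL20, read 9.74, 9.70 and 9.15 against 6.47, 6.18, 6.28 and 5.96 (difference 3.31, SE 0.26). Ccr4, a receptor for entry into skin, read 7.20, 6.75 and 6.04 against 4.23, 3.80, 3.86 and 4.07 (difference 2.67, SE 0.35), and its Treg arrays were spread more widely. Ccr2, a receptor of inflammatory cells, rose by 2.90 (SE 0.25) and Cxcr3, a receptor of type 1 helper cells, by 1.93 (SE 0.15). Ccr3, best known from eosinophils, rose by at least 1.07 (SE 0.10).

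Some other differences in the family were smaller. Ccr10, a receptor for homing to skin and mucosa, differed by 0.58 (SE 0.14), and its call ended without Treg replicate 1 or 2 (adjusted p = 0.06 and 0.064). Cxcr1, best known from neutrophils, fell by 0.63 (SE 0.08), from 5.12, 5.24, 5.09 and 5.01 to 4.42, 4.54 and 4.50. Cxcr4, which retains cells in bone marrow, differed by -0.18 and Cxcr6, a receptor of tissue-homing effector cells, by 0.41, and neither was called.

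Among 29 chemokines 5 rose and 1 fell, with a median of -0.02, and 4 of the rises held. Cxcl2, a neutrophil attractant, read 6.78, 6.51 and 5.08 in Treg arrays against 2.88, 2.65, 2.80 and 2.79. Treg replicate 4 lay far below the other Treg arrays, and the CD45RBhigh arrays lay near background, so the difference was at least 3.34 (SE 0.31). Cxcl10, a ligand of CXCR3, read 7.30, 7.50 and 7.10 against 5.90, 5.46, 5.48 and 5.67 (difference 1.67, SE 0.20). Ccl1, the ligand of CCR8, rose by 1.40 (SE 0.11) and Ccl20, the ligand of CCR6, by at least 0.88 (SE 0.16). The fall was that of Ccl25 (-0.46), the ligand of CCR9, which ended when any 1 of 5 arrays was left out (adjusted p up to 0.11), and 4 rose and 2 fell with quantile normalization. Ccl5, a chemokine of effector cells, differed by -0.24 without a call.

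The lectin-like receptors of the killer cell family went both ways. Of 18 genes 1 rose and 4 fell, with a median of -0.13, and 9 lay near background in both populations. Klrg1, an inhibitory receptor for cadherins, read 10.58, 10.50 and 10.15 in Treg arrays against 6.15, 5.44, 5.33 and 5.01 (difference 4.93, SE 0.28). CD45RBhigh replicate 1 was the highest of its group and lay far below the Treg arrays. Klrd1, the CD94 chain that pairs with NKG2 receptors, read 4.23, 3.40 and 4.17 against 9.40, 9.20, 9.35 and 8.94. It gave the largest fall among the 1246 probe sets, -5.29 (SE 0.20, 39-fold, adjusted p = 1.42e-08 in limma). Klra9, a Ly49 receptor, read 4.54, 5.06 and 4.57 against 7.20, 6.23, 6.50 and 7.07 (difference -2.03, SE 0.22), and Ly49 genes are close copies whose signals may mix. These 3 calls held. Klra3, near background in both populations, and Klra8 (-0.40) lost their calls without Treg replicate 1, 2 or 4 or CD45RBhigh replicate 1, among other arrays, with adjusted p up to 0.11 and 0.13. Klrc1, an NKG2 partner of CD94 (-0.41), and Klrk1, an activating receptor of natural killer cells (-0.07), were not called, though Klrc1 passed with the replicate block (adjusted p = 0.011). Klrd1 is also the leading gene of the natural killer and CD8+ marker sum given above.

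Of 9 galectins 3 rose and 1 fell. Lgals1, which encodes galectin-1, read 12.09, 12.12 and 12.11 in Treg arrays against 10.79, 10.45, 10.73 and 10.55 (difference 1.48, SE 0.12). Lgals3, which encodes galectin-3, read 7.43, 7.46 and 7.27 against 6.23, 6.55, 6.16 and 6.43 (difference 1.04, SE 0.16). The groups lay apart in both, and these calls held. Lgals4 (-0.67) lost its call when any 1 of 7 arrays was left out (adjusted p up to 0.17), and Lgalsl (0.84) lost it when any 1 of 4 arrays was left out (adjusted p up to 0.13). Lgals9, the gene of galectin-9 (-0.27), was not called, whereas Havcr2, the gene of its receptor TIM-3, named after its values were seen, rose by at least 0.89 (SE 0.08). Of 46 other C-type lectin genes 26 lay near background in both populations, and 0 of the 3 calls held.

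Of 26 adhesion and mucin-like genes 6 rose and 2 fell, and 4 calls held. Itgae, the alpha chain CD103 of the integrin that binds E-cadherin, read 9.87, 10.04 and 9.15 in Treg arrays against 5.23, 5.36, 5.24 and 5.04. The Treg arrays stood far above the CD45RBhigh arrays (difference 4.47, SE 0.28). Icam1, an integrin ligand, read 9.11, 9.11 and 8.94 against 8.01, 7.99, 8.03 and 8.04 (difference 1.04, SE 0.10). Pecam1, the adhesion molecule CD31, read 9.20, 8.91 and 9.43 against 9.93, 9.64, 9.68 and 10.03 (difference -0.64, SE 0.13), with the Treg arrays below. Icam2, another integrin ligand, differed by -0.72, and its call ended without Treg replicate 1 or 2 (adjusted p = 0.075 and 0.08). With Cd44 lost without Treg replicate 1 (adjusted p = 0.06) and Muc1, a mucin (0.36), lost without Treg replicate 2 (adjusted p = 0.08), 5 genes rose and 1 fell without either array. Selplg, the scaffold of the P-selectin ligand (-0.11), was not called.

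Proteoglycans are proteins that carry long sulfated chains of heparan, chondroitin or dermatan sulfate. Of 32 core protein genes 5 rose and 1 fell, with a median of 0.00, and the calls of Sdc4, Cd74 and Tgfbr3 held. Sdc4, a transmembrane heparan sulfate proteoglycan, read 8.70, 8.87 and 8.25 in Treg arrays against 4.96, 4.98, 4.88 and 4.65. It rose by 3.74 (SE 0.18, 13.4-fold, adjusted p = 9.31e-08 in limma), whereas the other syndecans Sdc1 (0.04), Sdc2 (0.08) and Sdc3 (0.05) were not called. Srgn, which encodes the granule proteoglycan serglycin, read 12.91, 12.62 and 12.59 against 12.37, 12.06, 11.88 and 11.41. The groups did not overlap, but the call (difference 0.78) ended when any 1 of 5 arrays was left out (adjusted p up to 0.11). The counts depended on the fit: 4 rose and 2 fell without CD45RBhigh replicate 4, 5 rose and 2 fell without CD45RBlow replicate 3 and 3 rose and 1 fell without Treg replicate 1, 2 or 4, and 4 fell with the replicate block or the 75th percentile centring and 3 with quantile normalization.

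Of 30 genes that build or cut heparan sulfate and its linker 2 rose and 5 fell, and 1 call held in each direction. Xylt2, a xylosyltransferase that starts the linker, read 7.16, 7.23 and 7.51 in Treg arrays against 8.25, 8.28, 8.49 and 8.92 (difference -1.19, SE 0.16). Hpse, the enzyme heparanase that cuts heparan sulfate, read 4.71, 4.53 and 4.97 against 3.94, 3.88, 4.22 and 4.26 (difference 0.66, SE 0.15). The groups did not overlap in either gene. B4galt7, the next enzyme of the linker (-0.35), lost its call without Treg replicate 1 or 4 (adjusted p = 0.072 and 0.05). The sulfotransferases Hs6st1 (-0.65), Hs2st1 (-0.31) and Hs3st3b1 (-0.38) were lower as well, with adjusted p up to 0.15, 0.14 and 0.081 when 1 array was left out. Leaving out arrays moved the counts: 1 rose and 5 fell without CD45RBhigh replicate 2, 2 rose and 3 fell without CD45RBhigh replicate 3, 1 rose and 3 fell without CD45RBhigh replicate 4 and 1 rose and 2 fell without Treg replicate 1, 2 or 4. Ext1 (0.10) and Ext2 (-0.02), which polymerise heparan sulfate, were not called.

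For chondroitin and dermatan sulfate and hyaluronan 2 of 18 genes rose and 1 fell. Quantile normalization gave 2 rises and 3 falls and the 75th percentile centring 2 of each, and 1 rose and 1 fell with array medians centred. By array, 1 rose and 1 fell without Treg replicate 2 or CD45RBhigh replicate 2, 3 or 4 or CD45RBlow replicate 2 or 4 and 1 rose and 2 fell without Treg replicate 1. Ust, a sulfotransferase for uronic acid residues, read 7.21, 6.93 and 6.52 in Treg arrays against 9.63, 9.62, 9.74 and 9.53. The Treg arrays were spread more widely than the CD45RBhigh arrays but far below them (difference -2.74, SE 0.14, 6.7-fold), and a second probe set gave -2.14 (SE 0.12). Chst11, a chondroitin 4-sulfotransferase, read 6.53, 6.24 and 6.38 against 5.83, 5.69, 5.49 and 5.43 (difference 0.77, SE 0.12), and its call held. Chsy1, a chondroitin polymerase, read 8.76, 8.19 and 7.97 against 8.01, 7.20, 7.10 and 7.29. CD45RBhigh replicate 1 lay above Treg replicate 4, and the call (difference 0.90, adjusted p = 0.048) ended when any 1 of 7 arrays was left out (adjusted p up to 0.19).

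**Figure D4:**
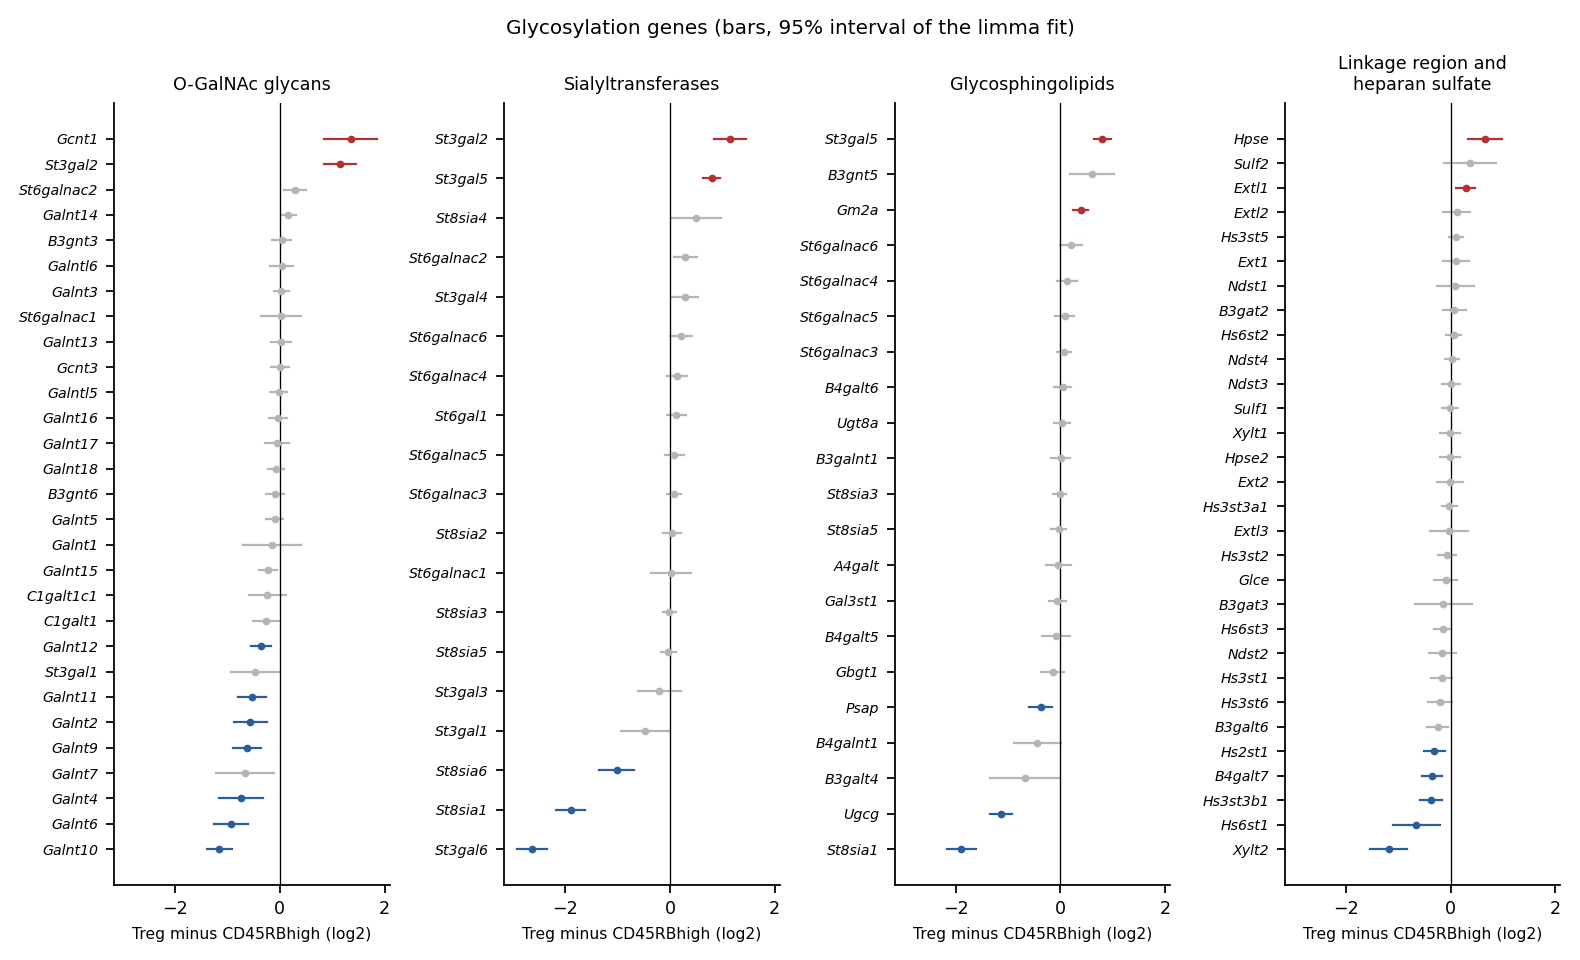
Each point is the difference of 1 gene, Treg minus CD45RBhigh (log2), and each bar its 95% interval in limma, for the measured genes of 4 groups of glycosylation genes. Genes past an adjusted p of 0.05 are coloured by direction and the others are grey. The 7 genes called lower for O-GalNAc glycans are GalNAc-transferases, and St3gal6 (-2.64) and St8sia1 (-1.89) are the lowest of the sialyltransferases.

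O-GalNAc glycans begin when a polypeptide GalNAc-transferase adds the first sugar to serine or threonine. Of 29 genes for these glycans 2 rose and 7 fell, the falls being 24.1% against 8.37% of all named genes, with a median of -0.09, and the 7 that fell encode GalNAc-transferases. Galnt10 read 8.57, 8.49 and 8.53 in Treg arrays against 9.47, 9.68, 9.62 and 9.96 (difference -1.15, SE 0.10). Galnt6 read 9.39, 9.25 and 9.61 against 10.24, 10.18, 10.30 and 10.71 (difference -0.94, SE 0.15), and Galnt9 fell by 0.62 (SE 0.12). In these 3 the Treg arrays lay below all CD45RBhigh arrays and the calls held. Galnt4 (-0.74), Galnt2 (-0.57), Galnt11 (-0.53) and Galnt12 (-0.36) did not pass without Treg replicate 2 (adjusted p of 0.086, 0.065, 0.053 and 0.055), which left 3 falls, while 11 fell with the replicate block. Galnt1 (-0.15), C1galt1 (-0.26), which extends the first sugar, and its chaperone C1galt1c1 (-0.24) were not called, though Galnt1 and C1galt1 passed with the block (adjusted p = 0.037 and 0.032). Gcnt1, which branches the chain into core 2, rose by at least 1.35 (SE 0.23) at its brighter probe set and differed by 0.06 without a call at the other. St3gal2, which caps such chains with sialic acid, read 7.82, 7.64 and 7.74 against 6.51, 6.51, 6.40 and 6.92 (difference 1.15, SE 0.14).

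Of 26 genes for fucosylated and sulfated selectin ligands 4 rose and 2 fell, and 4 calls held. The shares were 15.4% and 7.69%, against 11.3% and 8.37% of all named genes. Chst2, a sulfotransferase of N-acetylglucosamine, read 6.94, 7.31 and 6.13 in Treg arrays against 4.53, 4.45, 4.48 and 4.68 (difference 2.26, SE 0.30). Fut7, the fucosyltransferase that completes sialyl Lewis x, read 6.89, 6.89 and 6.82 against 5.81, 5.77, 6.21 and 5.88 (difference 0.95, SE 0.09). The Treg arrays were the higher in both, close together for Fut7 and spread for Chst2. Fut4, another fucosyltransferase of leukocytes, was not called at its brightest probe set (0.11) and passed at 1 of its other probe sets, where both populations lay near background. B4galt1, a galactosyltransferase, differed by -0.28, and its call ended when any 1 of 3 arrays was left out (adjusted p up to 0.066). Without Treg replicate 1 or 2, 3 genes rose and 1 fell in this list, the other loss being Fut10 (0.29), a fucosyltransferase homologue, with adjusted p of 0.085 and 0.067.

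Sialyltransferases add the terminal sialic acids of glycans. Of 19 genes 2 rose and 3 fell, with a median of 0.07, and all 5 calls held. St3gal6, which caps N-acetyllactosamine, read 4.96, 4.64 and 5.0 in Treg arrays against 7.63, 7.60, 7.59 and 7.18. CD45RBhigh replicate 4 was lower than the rest of its group yet far above the Treg arrays (difference -2.64, SE 0.13, 6.21-fold, adjusted p = 1.14e-07 in limma). St8sia6, an alpha-2,8-sialyltransferase, read 9.66, 9.20 and 9.40 against 10.64, 10.55, 10.16 and 10.42 (difference -1.02, SE 0.15). St6gal1, which adds alpha-2,6-linked sialic acid to N-glycans, read 11.71, 11.62 and 11.47 against 11.44, 11.44, 11.48 and 11.56, with overlap and no call (0.12, 95% interval -0.07 to 0.31).

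Sugar nucleotides and sialic acid precursors feed these enzymes. Of 34 genes for their supply 3 rose and 3 fell, close to the shares of all named genes, and 3 calls held. Cmah, which hydroxylates the activated sialic acid, read 8.67, 8.37 and 8.36 in Treg arrays against 10.0, 9.98, 9.49 and 9.88 (difference -1.37, SE 0.14). The Treg arrays lay below all CD45RBhigh arrays. Cmas, which activates sialic acid, fell by 0.41 (SE 0.08), and Gmds, which starts GDP-fucose synthesis, rose by 0.49 (SE 0.08). Gne, the first enzyme of sialic acid synthesis (-0.04), was not called. With the replicate block the list had 5 rises and 5 falls, and 1 rose and 5 fell under the 75th percentile centring.

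Glycosphingolipid synthesis begins with the addition of glucose to ceramide, and gangliosides form by addition of sialic acid. Of 21 genes 2 rose and 3 fell, and 4 calls held. Ugcg, the glucosyltransferase of the first step, read 10.05, 9.72 and 9.87 in Treg arrays against 11.13, 10.96, 10.97 and 10.99 (difference -1.13, SE 0.09). St3gal5, which makes the ganglioside GM3, read 6.91, 6.90 and 6.90 against 6.19, 6.0, 5.97 and 6.27 (difference 0.80, SE 0.07). St8sia1, which converts GM3 to GD3, read 7.59, 7.04 and 7.05 against 9.07, 9.15, 9.03 and 9.23 (difference -1.89, SE 0.13). St3gal5 and St8sia1, of consecutive steps, differed in opposite directions, and the groups did not overlap in any of these 3 genes. Gm2a, an activator of ganglioside breakdown, rose by 0.39 (SE 0.06). B4galnt1 (-0.44) and B3galt4 (-0.68), which extend gangliosides, were not called but passed with the replicate block (adjusted p = 0.00298 and 0.000643), which gave 3 rises and 5 falls.

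Of 28 galactosyltransferase and N-acetyllactosamine genes 4 rose and 3 fell, and 4 calls held. The shares were 14.3% and 10.7%, against 11.3% and 8.37% of all named genes. Ggta1, which makes the alpha-galactose epitope, read 8.41, 8.10 and 8.01 in Treg arrays against 7.15, 6.85, 6.48 and 6.77 (difference 1.36, SE 0.17). B4galt4, a galactosyltransferase, rose by 1.22 (SE 0.13), and B4galnt4, which adds N-acetylgalactosamine, by 1.02 (SE 0.12). The groups did not overlap in these genes. B3galnt2, a transferase of N-acetylgalactosamine, fell by 0.43 (SE 0.08). B3gnt2, which extends N-acetyllactosamine chains (0.67), lost its call when any 1 of 5 arrays was left out (adjusted p up to 0.12), and B4galt3 (-0.61) lost it when any 1 of 3 arrays was left out (adjusted p up to 0.11). Without Treg replicate 1 or 2, 3 genes of this list rose and 1 fell.

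N-glycan genes were called lower at shares near that of all named genes, 10.0% for the precursor and 9.09% for trimming and branching against 8.37%. Calls higher were 0 in both lists, against 11.3%. Of 20 genes for the precursor 0 rose and 2 fell, Uggt1, a folding sensor (-0.37), and Alg1, a mannosyltransferase (-0.39), with a median of 0.00. Without Treg replicate 2 neither passed (adjusted p = 0.071 and 0.13). Leaving out other arrays gave like counts, of 1 rise and 2 falls without CD45RBhigh replicate 1 and of 0 rises and 1 fall without CD45RBhigh replicate 3 or 4, while 6 fell with the replicate block and 2 rose and 2 fell with quantile normalization. Of 11 genes for trimming and branching Man2a2, a mannosidase, was called, at 6.27, 6.32 and 6.13 in Treg arrays against 7.19, 7.35, 6.84 and 7.92 (difference -1.08, SE 0.20). CD45RBhigh replicate 4 was the highest array. Falls numbered 2 with the replicate block or the 75th percentile centring and without CD45RBlow replicate 3 or Treg replicate 2, and 1 gene rose with the block or without CD45RBhigh replicate 4. Mgat5, a branching enzyme known to restrain T cell activation, read 5.20, 5.12 and 5.41 against 5.31, 5.32, 5.33 and 5.15. The groups overlapped, and the 95% interval of the difference was -0.20 to 0.14.

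Of 23 glycan-degrading enzymes 3 rose and 7 fell, the falls being 30.4% of the list, with a median of -0.16, and 4 calls held. Arsb, a sulfatase of dermatan sulfate, read 7.99, 7.58 and 7.45 in Treg arrays against 8.81, 8.81, 8.84 and 8.84 (difference -1.15, SE 0.12). The CD45RBhigh arrays were almost equal and all above the Treg arrays. Sgsh, a sulfatase of heparan sulfate, fell by 0.49 (SE 0.10). Neu3, a sialidase that acts on gangliosides, rose by 0.97 (SE 0.12). The counts moved with single arrays: 3 rose and 4 fell without CD45RBhigh replicate 4 or CD45RBlow replicate 1 or 3, 2 rose and 4 fell without Treg replicate 1, 3 rose and 2 fell without Treg replicate 2 and 2 rose and 3 fell without Treg replicate 4. Hexa, a subunit of hexosaminidase (-0.48), Idua, an iduronidase (-0.48), and Neu1, a lysosomal sialidase (-0.39), were among those that did not pass without Treg replicate 2 (adjusted p = 0.066, 0.062 and 0.12).

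Genes of insulin-like growth factor handling differed at the receptors and at 1 binding protein. Of 60 growth factor genes 6 rose and 1 fell, 10.0% and 1.67% of the list against 11.3% and 8.37% of all named genes. In both populations 24 lay near background, and 4 calls held, while 8 rose and 2 fell with the replicate block or quantile normalization. Igfbp4, a binding protein for insulin-like growth factors, read 9.96, 9.55 and 9.70 in Treg arrays against 12.48, 12.42, 12.42 and 12.61 (difference -2.75, SE 0.17), with -2.63 and -2.63 at its other probe sets. Igf1r read 9.32, 9.12 and 8.45 against 7.16, 7.23, 6.91 and 7.15, with Treg replicate 4 the lowest of its group. Igf2r, which clears insulin-like growth factor 2 and sorts lysosomal enzymes, read 10.25, 10.12 and 10.32 against 9.52, 9.34, 9.40 and 9.63 (difference 0.76, SE 0.09). The Treg arrays were the higher for both receptors, while the ligands Igf1 (-0.06) and Igf2 (0.07) were not called.

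Notch and Wnt genes showed few calls that held. Of 22 genes of Notch signalling and related O-glycans 3 rose and 1 fell, and the call that held was that of the ligand Dll1 (at least 0.59, SE 0.09). Notch2, a receptor, read 9.84, 10.17 and 9.08 in Treg arrays against 8.88, 9.21, 8.33 and 8.54. The groups overlapped, and the call (difference 0.96, adjusted p = 0.044) ended when any 1 of 8 arrays was left out (adjusted p up to 0.19). Pairs of numbers 1, 2 and 4 differed by 0.96, 0.96 and 0.54, and Notch2 passed with the replicate block (adjusted p = 0.000374 in limma). Mfng, a Fringe enzyme that extends O-fucose on Notch (-0.52), lost its call when any 1 of 4 arrays was left out (adjusted p up to 0.11), and Jag1, a ligand (0.50), lost it when any 1 of 9 arrays was left out (adjusted p up to 0.19). Notch1 (0.05) was not called. In this list 3 fell with the replicate block and 2 with quantile normalization, each beside 3 rises, and 1 rose and 1 fell with array medians centred. The counts moved with single arrays as well: 1 rose and 1 fell without CD45RBhigh replicate 1 or CD45RBlow replicate 1 or 4, 2 rose and 2 fell without CD45RBhigh replicate 2, 1 rose and 0 fell without Treg replicate 1 or 2 or CD45RBhigh replicate 3, 2 rose and 0 fell without CD45RBhigh replicate 4 and 1 rose and 3 fell without CD45RBlow replicate 3. Of 33 Wnt and Hedgehog genes 3 rose and 0 fell, but 4 fell with quantile normalization and 2 with array medians centred. Likewise, 3 rose and 1 fell without CD45RBhigh replicate 4 or CD45RBlow replicate 2 and 4 rose and 2 fell without Treg replicate 4. Fzd6, a Wnt receptor, rose by at least 1.03 (SE 0.09) and Wnt3, a ligand, by 0.70 (SE 0.08), and both calls held. Wnt10a, another ligand (0.51), lost its call when any 1 of 4 arrays was left out (adjusted p up to 0.14).

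The third population shows which differences also appear against CD25- cells of the same CD45RB gate. Treg against CD45RBlow gave 156 calls (12.5%) in the same fit, and because both comparisons use the same Treg arrays their values are only set side by side. Il2ra differed by 5.77 from CD45RBhigh and by 3.67 from CD45RBlow, and Sdc4 by 3.74 and 3.30. Klrd1 differed by -5.29 and -4.35, Tgfbr3 by -2.99 and -2.27, and Tgfbr1 by 1.40 and 1.28. In these genes the CD45RBlow cells were nearer to the CD45RBhigh cells than to Treg cells. St3gal6 differed by -2.64 and -3.27, with the CD45RBlow mean of 8.13 above that of both other populations.

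Other genes that rose against CD45RBhigh cells were not called against CD45RBlow cells. Ccr2 differed by 2.90 from CD45RBhigh and by -0.45 from CD45RBlow (adjusted p = 0.35 in limma for the latter). Chst2 differed by 2.26 and 0.08 (adjusted p = 0.9) and Il12rb1 by 2.12 and 0.07 (adjusted p = 0.79). The same order was seen for Bmp7 at 1.94 and 0.14, Lgals1 at 1.48 and 0.29, and Cxcr5 at 2.34 and 0.24, without a call against CD45RBlow. Cxcr3 stood between the CD25- populations, at 1.93 and -1.54 (adjusted p = 2.77e-05), as did Il17rb at 1.12 and -1.08 (adjusted p = 0.0015). St8sia6, which fell against CD45RBhigh (-1.02), differed by 0.03 from CD45RBlow (adjusted p = 0.92).

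**Figure D5:**
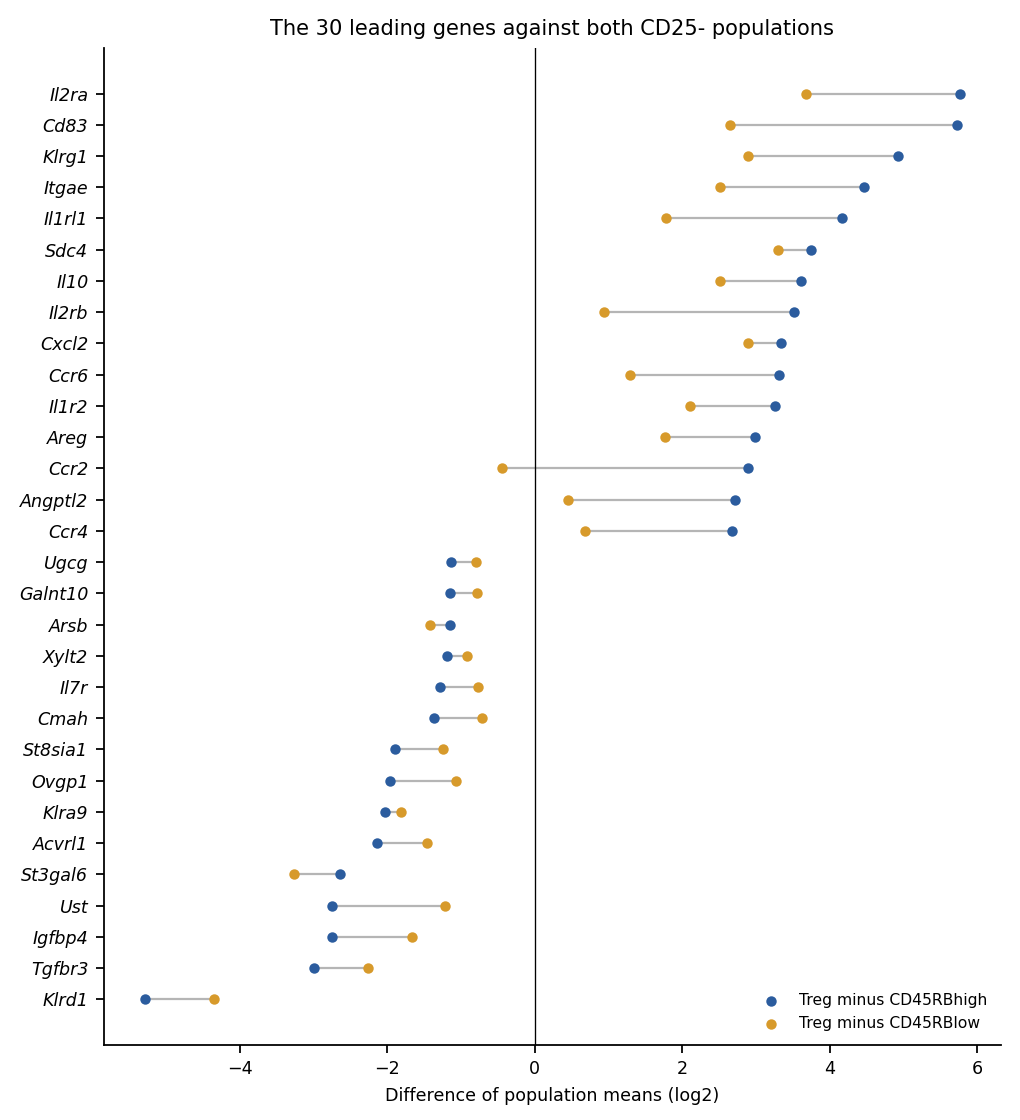
For the 30 leading genes, points give Treg minus CD45RBhigh and Treg minus CD45RBlow (log2), joined by a line, and both use the same 3 Treg arrays. Ccr2 has its points on opposite sides of 0, at 2.90 and -0.45. St3gal6 and Arsb have the larger difference against CD45RBlow, at -3.27 and -1.42.

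Arrays of 1 replicate number were also compared pair by pair, in the order of numbers 1, 2 and 4. Il2ra differed by 5.92, 5.80 and 5.37 and Cd83 by 5.75, 5.78 and 5.58. Tgfbr3 differed by -2.86, -3.15 and -3.06 and Acvrl1 by -2.08, -2.13 and -2.25. For these genes the pairs lay close to each other. Cxcl2 differed by 3.89, 3.86 and 2.29 and Chst2 by 2.41, 2.87 and 1.44, with the smallest difference in number 4. St8sia1 differed by -1.48, -2.11 and -2.18, with the smallest in number 1.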

How the data were processed

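RNA of splenic CD4+ T cells was amplified and labelled with biotin from 0.5 ug of total RNA and hybridised to a custom glycan gene chip, 1 array per sample. Extraction is given as Trizol in the labels and as an RNeasy kit in the series text. The table deposited by the authors holds 1 log2 value for each probe set and array. Robust Multichip Average (RMA) produced these values, per the submitters' processing notes, and its version is not given in the sources used here. RMA reports no depth or detection call. The deposited values did not share 1 distribution, as the 75th percentiles of the arrays ran from 7.31 to 7.58. Of 1246 probe sets 962 were given 1 of 908 gene symbols through RefSeq accessions, and 284 stayed unnamed. For a gene with several probe sets the brightest was used.

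The 11 arrays entered 1 linear model that estimated a mean for each population (limma 3.58.1, R 4.3.3). Variances were moderated by empirical Bayes, with 2.87 prior and 8 residual degrees of freedom, followed by two-sided tests and Benjamini-Hochberg adjustment over all 1246 probe sets at 0.05. The code was tested on simulated data. Named genes were the 15 largest differences in each direction without overlap, up to 3 members per list and direction by smallest adjusted p, and sort markers. Genes outside this rule were named to complete a family (members without a call and calls that did not hold) or, where said, after their values were seen. The members and gene lists were chosen with earlier results of these data known. The lists are described by counts and medians only. Some members that enter these counts are not reported here by name.

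Arrays of 1 number in Treg and CD45RBhigh cells deviated together from their population means (correlations across probe sets of 0.447, 0.465 and 0.429 for numbers 1, 2 and 4), so the numbers were taken to pair the samples. The main fit and the 14 fits that define a held call did not use this pairing. Their p-values and standard errors ignore it, and the paired fit is given only as an alternative. The Treg array of number 4 correlated at 0.451 with CD45RBhigh number 3 as well, and numbers 1 and 2 deviated apart from 3 and 4. What the numbers stand for is not given in the labels. Alternatives were a fixed or random replicate block, other scalings, filters on dim or unspecific probe sets, other moderation, a test against 1.2-fold, subsets of arrays and each array left out.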

Additional observations from a re-analysis of the deposited data

Results flagged for a closer look

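In the 4 CD45RBhigh arrays, 1 array stood apart from the other 3 by Dixon's test for 7 of the 121 named genes, and chance gives about 1 in 20. CD45RBhigh replicate 4 was low for St3gal6, at 7.18 against 7.59 to 7.63. It was high for Ovgp1, which encodes an oviductal glycoprotein, at 8.44 against 7.64 to 7.76, and for B4galt1, at 10.8 against 10.5 in the other 3 arrays. Replicate 2 was low for Tgfbr1, at 7.66 against 7.92 to 7.96, and for Gcnt1, at 2.33 against 2.92 to 2.95. Replicate 3 was low for B4galt4, at 4.06 against 4.31 to 4.35, and replicate 1 was high for Fzd6, at 3.60 against 3.35 to 3.39. In all 7 genes the array apart stayed on its own side of the 3 Treg arrays. Named genes were mostly chosen as calls, the leading ones also for groups without overlap, so this was largely set by the choice.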

How the results depend on the processing

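Of 3336 values of named genes under the alternatives, 2963 kept direction and side of the threshold, 372 kept direction but missed it, 1 newly passed and 0 reversed, and 55 of 121 genes were the same in every alternative run. The 235 calls (128 higher, 107 lower) became 330 (151 and 179) with the replicate block, 305 (151 and 154) with the block on only the 7 arrays compared, an alternative added after seeing the data, 88 (52 and 36) with only replicates 3 and 4, and 107 (70 and 37) in a test against 1.2-fold. Leaving out 1 array gave 164 to 227 calls, 96 to 126 higher and 59 to 101 lower, with the fewest in all and the fewest lower without Treg replicate 2 and the fewest higher without Treg replicate 1. Il22ra1, Bmp6 and Cxcl13 lost their calls with the block (adjusted p = 0.062, 0.069 and 0.078 in limma). Among genes described by name the block changed no other call beside those given in the report. The other alternatives gave counts within 1.5 times of the main ones. The cause of these changes was not tested, and fewer arrays or a stricter hypothesis enter by construction in the subsets and in the 1.2-fold test. The number of arrays and signals near background limit small differences.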

Other observations

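Neighbouring genes of the same family differed in size. In the RefSeq gene order, 6 interleukin-1 receptor genes adjoin each other, and all 6 were measured. From the end at Il1r2 the differences between Treg and CD45RBhigh cells were 3.26 for Il1r2, 0.36 for Il1r1, -0.35 for Il1rl2, 4.16 for Il1rl1, -0.10 for Il18r1 and 0.28 for Il18rap. The genes of the decoy receptor and of ST2 thus rose beside genes of signalling chains that were not called or, for Il1rl2, were lower in a call that did not hold.

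A second run of adjoining genes holds mostly chemokine receptors. From the end at Ccr9 the differences were 2.10 for Ccr9, 0.41 for Cxcr6, 0.01 for Ccr1l1, at least 1.07 for Ccr3 and 2.90 for Ccr2, while Xcr1 and Ccr1, between Cxcr6 and Ccr1l1, read near background in CD45RBhigh cells. Fyco1, which lies after Ccr9, was not analysed here. Ccr9, Ccr3 and Ccr2 were called, and the measured genes between Ccr9 and Ccr3 were not.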
